A study of Mus musculus with 2 samples.

Results

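The interleukins, the cytokines of the tumour necrosis factor (TNF) superfamily and the receptors of both were examined in mouse osteoclast cultures with and without Dnmt3a. The members are all genes with a symbol that starts with Il, Tnfsf or Tnfrsf followed by a digit, together with Tnf, Lta, Ltb and Ltbr. RANKL (Tnfsf11), its receptor RANK (Tnfrsf11a) and the decoy receptor Tnfrsf11b were left out. This gave 112 genes, measured by 137 probes in 192 spots, of the 20654 genes that could be named on the array. The names of 5 further genes of this kind in the reference table, Il11ra2, Il12b, Il4i1b, Tnfsf13 and Tnfsf13os, matched no probe accession and were not analysed here.

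RNA came from cells of female C57BL/6 mice. Nonadherent bone marrow cells were cultured with M-CSF for 2 days, and the adherent monocyte/macrophage precursors were then given RANKL together with M-CSF, so both groups carried the same treatment. The groups were wild type and Dnmt3a knockout, with 1 array (Agilent, 1 colour, Cy3) for each genotype. Dnmt3a encodes a DNA methyltransferase that sets new methylation marks. The allele, the cells in which it was deleted, the mice's age, the number of mice behind each RNA and the length of the RANKL culture are not given in the sources used here.

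Interleukins are secreted messengers between blood cells. Most act through receptors that pair a specific chain with a shared one and signal through Jak kinases and Stat factors, whereas the interleukin-1 family and interleukin-17 family use adaptors that lead to NF-kappaB. TNF superfamily ligands are mostly membrane-anchored trimers, and their receptors recruit Traf adaptors or death domain proteins. In bone, Tnf and interleukin-1 are known to promote osteoclast formation and activity beside RANKL, while Il4, Il10, Il18 and Il27 are known as inhibitors of osteoclast formation.

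A value below is the scanner's processed signal of a probe in linear intensity units, wild type first. The difference is knockout minus wild type on the log2 scale, after each array was divided by its own 75th percentile over all non-control spots (584 and 572). An error given with a difference combines what the scanner software reports on both arrays (median 0.21 over the measured members). For repeated spots the median of their relative errors on each array was used. This error describes how well a spot was read; how far cultures or mice vary is not in it. With 1 array per genotype no test was possible, so no p-value is given, and a gene is described as higher or lower when it differed by at least 1.5-fold. Signals of different probes depend on the probe and were not compared with each other.

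As a check of the label, the only Dnmt3a probe read 7042 in wild type and 1822 in knockout cells (3.79-fold lower). All 12 osteoclast markers were measured on both arrays, among them Acp5 and Ctsk, the acid phosphatase and the collagen-degrading protease that define the cell type. Of the 59305 spots, 52.7% and 59.7% were well above background, and the lowest probe signal well above background was 25.8 and 17.7. No spot was saturated. Repeated spots of the same probe, available for 259 probes, gave log2 differences with a median SD of 0.07.

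Of the 112 members, 68 (60.7%) were well above background on both arrays, against 65.3% of all named genes. Among these 68, 12 were at least 1.5-fold higher on the knockout array (17.6%; of all 13479 measured genes, 5.82% were) and 3 were at least 1.5-fold lower (4.41%, against 4.69%). The higher members were the ligands Tnfsf10, Tnfsf15, Il1b, Il10, Il16, Tnfsf9, Il18 and Il15 and the receptors Il15ra, Tnfrsf9, Il10ra and Il1r2. The lower members were all receptors, Il1r1, Tnfrsf25 and Il17rc. The median difference of the members was 0.20, against 0.01 for all measured genes, and 47 of 68 lay above 0 (69.1%, against 51.9% of all). With scaling to the spike-in RNAs, which lowers every difference by 0.53, the members' median became -0.33 and 16 of 68 lay above 0, while the median of all genes became -0.52 and 7.37% lay above 0. On that scale 1 member was 1.5-fold higher (0.482% of all genes) and 17 were lower (39.9% of all genes). Directions below are therefore relative to the bulk of the genes.

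**Figure D1:**
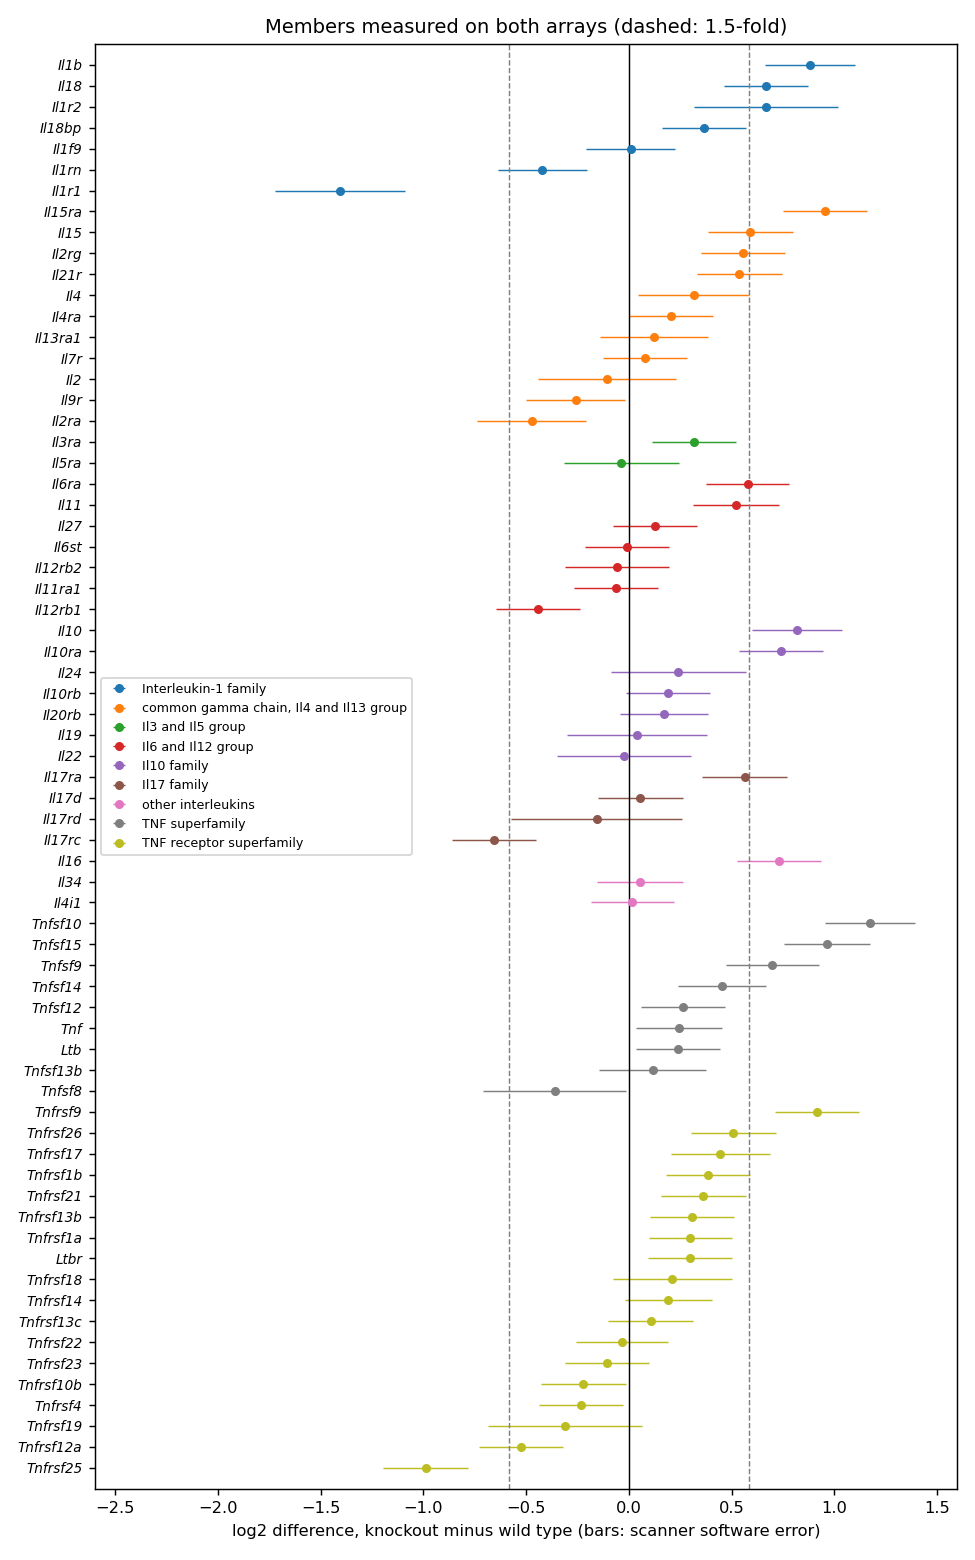
Log2 difference (knockout minus wild type) of the 68 members measured on both arrays, grouped by family and coloured by it, with the scanner software's error as bars and dashed lines at 1.5-fold. A total of 12 members lie right of the upper line and 3 left of the lower line; scaling to the spike-in RNAs would move every point left by 0.53.

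Ligands and receptors differed in their counts. Of the 24 measured ligands, 8 were higher by 1.5-fold or more (33.3%, against 5.82% of all measured genes). None was 1.5-fold lower (4.69% of all), and the median was 0.25 with 21 above 0 (8 with spike-in scaling, median -0.28). Of 41 receptor chains, 4 were higher (9.76%) and 3 lower (7.32%), with a median of 0.17 and 24 above 0 (8 with spike-in scaling, median -0.36). These counts describe a pair of arrays, and the difference between ligands and receptors was not tested. At a threshold of 2-fold, 1 member was higher (Tnfsf10; 0.824% of all genes) and 1 was lower (Il1r1; 0.727% of all genes). Just below the 1.5-fold threshold lay Il6ra (0.58), and just above it Il15 (0.59).

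**Figure D2:**
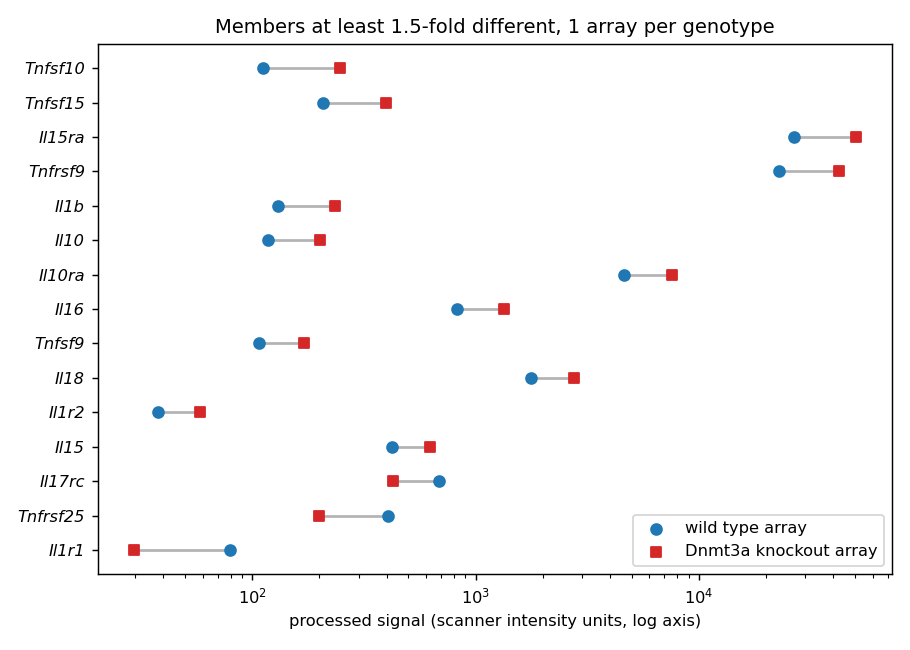
Processed signal (log axis, scanner units) of the 15 members at least 1.5-fold different, on the wild type array (circles) and the knockout array (squares), 1 array per genotype and sorted by difference. The upper 12 genes are brighter on the knockout array and the lower 3 dimmer; positions along the axis are not comparable between genes, and with spike-in scaling only Tnfsf10 stays 1.5-fold higher.

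The start regions of the members at the ends of the ligand and receptor lists are shown as the extremes of the measured differences: the ligand and receptor highest in knockout relative to wild type (Tnfsf10, Il15ra), the receptor lowest in it (Il1r1) and the ligand with the lowest difference (Tnfsf8, within 1.5-fold). Each window spans 250 bases before to 50 bases after a gene start, from RefSeq on GRCm38.p6, and Il15ra and Il1r1 have 2 starts each. Capitals mark the letters AANNGAAA on either strand, the core bound by interferon regulatory factors (Irf). Tnfsf10 lies at chr3:27316827-27317126 (plus strand), Tnfsf8 at chr4:63861235-63861534 (minus strand), Il15ra at chr2:11705043-11705342 and chr2:11705462-11705761 (plus strand), and Il1r1 at chr1:40224830-40225129 and chr1:40266336-40266635 (plus strand).
Tnfsf10: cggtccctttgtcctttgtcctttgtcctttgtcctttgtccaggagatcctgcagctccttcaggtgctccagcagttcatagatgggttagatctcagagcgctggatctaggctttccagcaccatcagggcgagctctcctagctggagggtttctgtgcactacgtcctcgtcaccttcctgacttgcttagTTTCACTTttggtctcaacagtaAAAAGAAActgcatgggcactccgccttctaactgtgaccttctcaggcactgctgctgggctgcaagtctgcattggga
Tnfsf8: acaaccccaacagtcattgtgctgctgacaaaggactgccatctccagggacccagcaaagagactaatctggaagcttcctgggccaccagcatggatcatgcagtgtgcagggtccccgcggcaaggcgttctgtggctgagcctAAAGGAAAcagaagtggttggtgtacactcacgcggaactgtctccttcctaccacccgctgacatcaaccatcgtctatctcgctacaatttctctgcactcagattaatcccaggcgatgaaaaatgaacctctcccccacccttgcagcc
Il15ra, first start: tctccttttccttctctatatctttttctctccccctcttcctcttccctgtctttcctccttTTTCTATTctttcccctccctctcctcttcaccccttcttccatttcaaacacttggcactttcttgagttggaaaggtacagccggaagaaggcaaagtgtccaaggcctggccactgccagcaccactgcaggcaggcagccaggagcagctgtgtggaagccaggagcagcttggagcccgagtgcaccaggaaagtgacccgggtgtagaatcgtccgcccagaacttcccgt
Il15ra, second start: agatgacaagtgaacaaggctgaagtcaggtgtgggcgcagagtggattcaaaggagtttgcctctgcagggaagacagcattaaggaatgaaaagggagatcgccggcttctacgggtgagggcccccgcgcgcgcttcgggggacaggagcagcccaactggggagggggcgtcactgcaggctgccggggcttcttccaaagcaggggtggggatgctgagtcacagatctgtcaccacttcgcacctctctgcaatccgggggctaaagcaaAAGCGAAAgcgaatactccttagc
Il1r1, first start: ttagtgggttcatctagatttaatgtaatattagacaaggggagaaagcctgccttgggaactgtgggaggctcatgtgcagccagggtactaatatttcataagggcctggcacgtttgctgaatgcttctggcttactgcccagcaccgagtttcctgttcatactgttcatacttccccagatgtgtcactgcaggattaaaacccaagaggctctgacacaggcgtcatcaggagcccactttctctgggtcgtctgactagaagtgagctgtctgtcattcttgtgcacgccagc
Il1r1, second start: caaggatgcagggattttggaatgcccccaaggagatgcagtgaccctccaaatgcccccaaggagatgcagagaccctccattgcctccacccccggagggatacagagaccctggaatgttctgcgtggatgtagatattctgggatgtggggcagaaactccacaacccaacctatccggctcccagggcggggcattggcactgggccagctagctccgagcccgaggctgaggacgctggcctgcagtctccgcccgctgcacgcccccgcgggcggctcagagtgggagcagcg

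The window of Tnfsf10 held 2 such matches, Tnfsf8 and each Il15ra window 1, and neither Il1r1 window any. Promoter windows were found for 89 of the 112 members (108 windows). The Irf letters occurred in 9 of 12 windows of the members at least 1.5-fold higher (8 of these 12 genes have a window), in 1 of 5 windows of the 3 lower members and in 38.0% of windows of measured members within 1.5-fold. Over all 108 member windows the share was 41.7%, against 23.9% of all 32851 windows of the genome table. Other motifs were rarer: TTCNNNGAA, a Stat element, was in 17.6% of member windows (8.30% of all), and TGANTCA, an AP-1 element, also in 17.6% (7.81% of all). By direction, the Stat element was in 2 of 12 higher, 1 of 5 lower and 11 of 50 windows within 1.5-fold. The AP-1 element was in 3 of 12, 0 of 5 and 6 of 50. Il15ra, Il16 and Tnfrsf9 each supply several of the 12 windows, so these windows are not independent. A link between any motif and the direction of a difference was not tested. Both strands were searched, and the motifs may overlap. The median GC content was 51.3% in member windows and 52.7% in all, and the median number of CpG sites was 6 and 7. A match is a description of letters in these windows and not a measured site.

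The interleukin-1 family had 7 of 20 members measured on both arrays. Of these, 3 were higher (42.9%, against 5.82% of all measured genes) and 1 was lower (14.3%, against 4.69%). Il1b, the inducible ligand that is cut from its precursor by caspase-1, was printed in several places of the array. Over 9 spots it read from 118 to 152 (median 133) on the wild type array and from 218 to 249 (median 239.9) on the knockout array. The spots of the arrays did not overlap, and the difference was 0.88 (1.84-fold higher, error 0.22, SD over spots 0.11). The SD over spots is a spread within an array. Il18, a relative of Il1b that is processed the same way, read 1768 and 2749 on a single spot (0.67, 1.59-fold higher, error 0.20). Its soluble inhibitor Il18bp read 1359 and 1713, a difference of 0.36 that did not reach 1.5-fold. Il1f9, an epithelial member of the family, read 124 and 123.

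The receptor chains of interleukin-1 lay on opposite sides of 0. Il1r1, the signalling receptor, read 79.8 in wild type and 29.5 in knockout cells (-1.41, 2.65-fold lower, error 0.32), which was the largest difference of any measured member. The lowest signal called above background was 17.7 in the knockout, and the difference of Il1r1 was -0.53 after normexp background correction. Il1r2, the decoy receptor that binds interleukin-1 without signalling, read 37.7 and 58.6 (0.67, 1.59-fold higher, error 0.35). It too was dim, with 0.27 after normexp correction and 0.51 after quantile normalization. Il1rn, the receptor antagonist, read 184 and 135 (-0.42, error 0.22). Thus for this ligand, antagonist and receptor set, 1 ligand and the decoy were higher, the signalling receptor was lower and the antagonist was within 1.5-fold; with spike-in scaling Il1b was at 0.35 and Il1r2 at 0.14.

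The other chains that interleukin-1 receptors need gave no measurable signal. Il1rap, the shared accessory chain, read 18.5 and 23.3 and was not well above background on either array. The same held for Il18r1 (6.58 and 10.7) and Il18rap (6.42 and 5.05), the chains of the Il18 receptor, and for Il1a and Il33. Il1bos, an RNA encoded opposite to Il1b, was above background on the knockout array only. It read 5.87 and 77.3 on its 1 probe, so it was at least 3.06-fold higher against the lowest signal called above background on the wild type array.

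**Figure D3:**
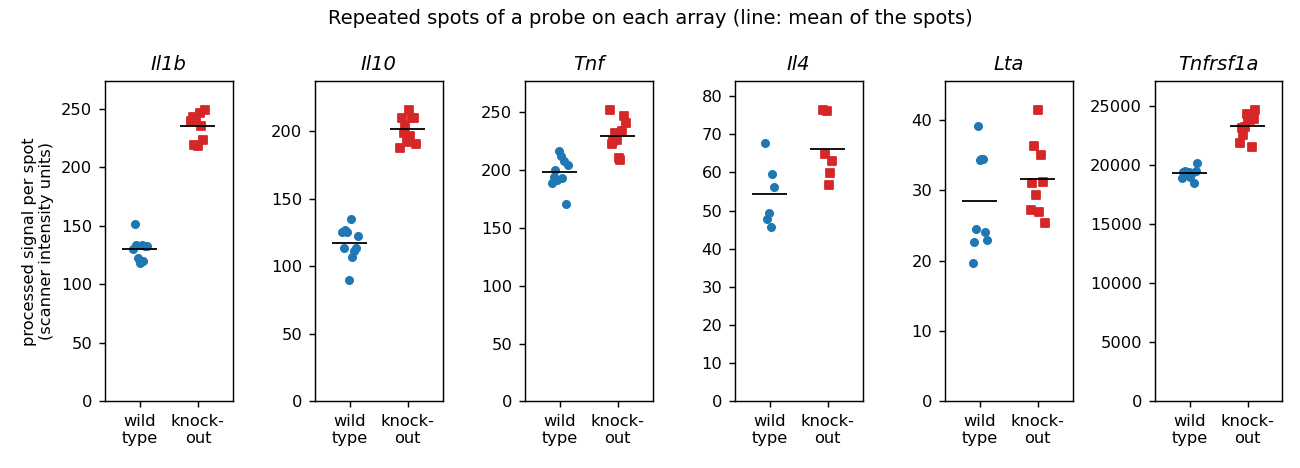
Processed signal of every unmarked spot of 6 members with repeated spots, on the wild type array (circles) and the knockout array (squares), each panel from 0 on its own scale, with a line at the mean of the spots. Spots of Il1b, Il10 and Tnfrsf1a do not overlap between the arrays, while those of Tnf, Il4 and Lta do; spots share an array and are not replicates, and spike-in scaling would turn the differences of Tnf, Il4, Lta and Tnfrsf1a negative.

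The common gamma chain group had 11 of 17 members measured on both arrays, 2 of them higher (18.2%, against 5.82% of all measured genes). Il15, which macrophages present to lymphocytes on its own receptor chain, read 421 and 622 (0.59, 1.51-fold higher, error 0.21). Il15ra, that presenting chain, read 26659 and 50684 (0.96, 1.94-fold higher, error 0.20). Its other probe, named by a different transcript accession, read only 113 and 127 and differed by 0.20, so the call rests on the bright probe. Il2rg, the common gamma chain itself, read 2489 and 3580 (0.55), and Il21r, which pairs with it, read 320 and 455 (0.54). Both stayed within 1.5-fold. Il2rb, the third chain of the Il15 receptor, was not well above background on either array (7.77 and 6.07).

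Receptors of Il4 and Il13, which oppose osteoclast formation, differed less. Il4ra read 719 and 812 (0.20, error 0.20), but its other probe read 305 and 517 (0.79), and the probes disagree on whether 1.5-fold was reached. Il13ra1, its partner, read 53.9 and 57.5 (0.12). Il4 itself was dim: over 6 spots it read from 45.8 to 67.8 in wild type and from 56.8 to 76.3 on the knockout array, ranges that overlapped (0.32, SD over spots 0.22). Il7r, the receptor of Il7, read 785 and 813 (0.08). Il2ra, the inducible chain of the Il2 receptor, read 74.7 and 52.7 (-0.47, error 0.27).

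The Il10 family held a ligand and its specific receptor chain that were both higher. Il10, an anti-inflammatory cytokine, read from 89.7 to 135 (median 118) over 10 spots on the wild type array and from 188 to 216 (median 202) on the knockout array, without overlap. The difference was 0.82 (1.77-fold higher, error 0.22, SD over spots 0.17), and 0.54 after normexp correction, which is below 1.5-fold. Il10ra, the chain that binds Il10, read 4619 and 7552 (0.74, 1.67-fold higher, error 0.20). Il10rb, shared with other cytokines of the family, read 5510 and 6167 (0.19). The other measured ligands Il19, Il22 and Il24 lay near background, from 32.7 to 45.4 over both arrays, with differences from -0.02 to 0.24. Il20 was above background in the knockout only (8.49 and 28.6). With spike-in scaling Il10 was at 0.29, Il10ra at 0.21 and Il10rb below 0.

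Of 7 measured members of the Il6 and Il12 group, none was 1.5-fold higher (5.82% of all measured genes) or lower (4.69% of all). Il6ra, the specific chain of the Il6 receptor, read 17962 and 26268 (0.58, 1.49-fold, error 0.20). Il6st (gp130), the shared signalling chain, read 1019 and 993 (-0.01, error 0.20). Il6 itself was not well above background on its 2 spots (6.79 and 17.2 in wild type, 6.02 and 17.5 in knockout cells). Il11, which signals through Il6st, read 193 and 272 (0.52), and its receptor Il11ra1 read 8300 and 7793 (-0.06). Il27, a heterodimer partner of Ebi3, read 780.0 and 835 (0.13). Il12rb1, shared by the receptors of Il12 and Il23, read 1199 and 863 (-0.44), while its other probe was at -0.01. Il12a and Il23a were not well above background on either array.

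In the Il17 family 1 of 3 measured receptor chains was 1.5-fold lower (4.69% of all measured genes) and none was higher (5.82% of all). Il17ra, the common chain, read 496 and 718 (0.56, 1.48-fold, error 0.21). Il17rc, its partner in the receptor for Il17a and Il17f, read 687 and 427 (-0.66, 1.58-fold lower, error 0.20), but its dimmer probe was at -0.16, and normexp correction gave -0.54. The ligands Il17a, Il17b, Il17c and Il17f were not well above background on either array, and Il17d read 422 and 429 (0.06). Il16, a chemoattractant that binds Cd4, read 824 and 1342 (0.73, 1.66-fold higher, error 0.20). Il34, the second ligand of the M-CSF receptor, read 193 and 197 (0.06). Il3ra, the receptor chain for Il3, read 7165 and 8749 (0.32), and Il4i1, an amino acid oxidase named after Il4 and no cytokine, read 2557 and 2536 (0.02).

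Among the TNF superfamily ligands 9 of 12 were measured on both arrays, and 3 were higher (33.3%, against 5.82% of all measured genes). Tnfsf10 (TRAIL), which triggers death receptors and is known as an interferon-induced gene, read 112 and 247 (1.17, 2.26-fold higher, error 0.22), the highest difference of any measured member. Its death receptor Tnfrsf10b read 683 and 574 (-0.22). The receptors Tnfrsf22 and Tnfrsf23, which bind Tnfsf10 but lack a death domain, differed by -0.03 and -0.11, with the other probe of Tnfrsf23 at -0.58. Thus the ligand was higher and none of these receptors was. The difference of Tnfsf10 was 0.81 after normexp correction and 0.65 with spike-in scaling, the only member that stayed 1.5-fold higher there.

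Tnfsf15 (TL1A), a costimulator of lymphocytes, read 208 and 398 (0.96, 1.95-fold higher, error 0.21). Its receptor Tnfrsf25 (DR3) read 404 and 199 (-0.99, 1.99-fold lower, error 0.21). This ligand and its receptor therefore differed in opposite directions, each on 1 spot; with spike-in scaling they were at 0.44 and -1.52. The spot of Tnfsf15 lies in the upper rows of the array, where 12.3% of measured genes were 1.5-fold different against 9.60% elsewhere; the part of position in its value was not tested.

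For Tnfsf9 (4-1BBL) and its receptor Tnfrsf9 (4-1BB), a costimulatory pair that has been linked to osteoclast formation, both were higher. Tnfsf9 read 107 and 170.1 (0.70, 1.62-fold higher, error 0.23), and 0.43 after normexp correction. Tnfrsf9 read 22955 and 42453 (0.92, 1.89-fold higher, error 0.20). Its other probe, of the same accession, read 113 and 74.3, a difference of -0.57. The probes of Tnfrsf9 thus disagree in direction, and their mean was 0.17.

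Tnf and its receptors differed by small amounts in the same direction. Tnf read from 171 to 216 (median 197) over 10 spots in wild type and from 208 to 252 (median 229) on the knockout array, so the ranges overlapped (0.24, SD over spots 0.16). Tnfrsf1a, the receptor present on most cells, read from 18438 to 20134 and from 21472 to 24607 over 10 spots, without overlap (0.30, SD over spots 0.05), and its other probe was at 0.42. Tnfrsf1b, the receptor of activated leukocytes, read 2960 and 3792 (0.39, error 0.20). None reached 1.5-fold, and with spike-in scaling all of them were below 0. Lta, which shares these receptors, was above background in 4 of 9 wild type spots and in 9 of 9 knockout spots, with ranges that overlapped. Ltb read 652 and 755 (0.24) and the lymphotoxin receptor Ltbr 8493 and 10237 (0.30).

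Other pairs of this superfamily stayed within 1.5-fold on their brightest probes. Tnfrsf12a (Fn14), the receptor of Tnfsf12 (TWEAK), read 3587 and 2443 (-0.52, 1.44-fold, error 0.20), while Tnfsf12 was at 0.26 on its brightest probe and at 0.79, past 1.5-fold, on the other. Tnfsf14 (LIGHT) read 154 and 207 (0.46), and its receptor Tnfrsf14 was at 0.19 and 0.40. Tnfsf13b (BAFF), a survival factor of B lymphocytes, read 55.8 and 59.2 (0.12), and its receptors Tnfrsf13b, Tnfrsf13c and Tnfrsf17 were at 0.31, 0.11 and 0.44. Tnfrsf26, a receptor with no known ligand, read 209 and 291 (0.51), and Tnfrsf21 (DR6) read 247 and 311 (0.36). Tnfsf8 (CD30L) was the lowest ligand, at 44.2 and 33.7 (-0.36, error 0.35). Of the receptor superfamily as a whole, 1 of 18 was 1.5-fold higher and 1 lower (5.56% each, against 5.82% and 4.69% of all measured genes). The median was 0.20, with 11 above 0 (1 with spike-in scaling).

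**Figure D4:**
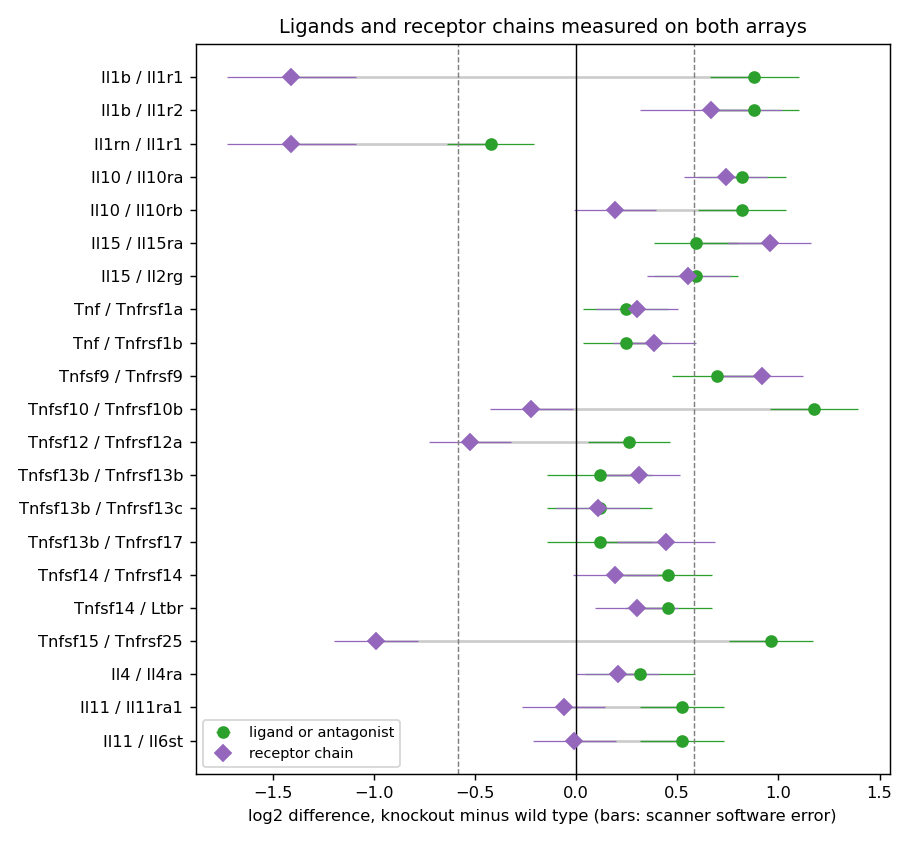
Log2 difference (knockout minus wild type) of ligands or the antagonist Il1rn (circles) and of a receptor chain (diamonds) in 21 pairings, with the scanner software's error as bars and dashed lines at 1.5-fold. Tnfsf15 with Tnfrsf25 and Il1b with Il1r1 lie past the lines on opposite sides. Il1b with Il1r2, Il10 with Il10ra, Il15 with Il15ra and Tnfsf9 with Tnfrsf9 lie past the upper line together. Each gene is shown by its brightest probe, and the other probes of Il15ra (0.20) and Tnfrsf9 (-0.57) are not past that line. Spike-in scaling would move every point left by 0.53.

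On the knockout array only, 9 members (8.04%) were above background, against 5.48% of all named genes, and no member was on the wild type array only (0.862% of all). Beside Il1bos, the haematopoietic growth factor Il3 read 22.4 and 48.2 (at least 1.91-fold higher) and Il17re 7.13 and 45.8 (at least 1.81-fold higher). A bound of at least 1.5-fold was thus reached by 3 of these 9, against 21.4% of the 1131 genes of this kind. The others, Il20, Il22ra1, Il25, Il27ra, Il1rl1 and Lta, had bounds from 1.05-fold to 1.18-fold. The remaining 35 members were not well above background on either array, with signals from 5.09 to 19.4 and from 3.54 to 23.3. They included the T-cell cytokines Il5, Il9, Il13, Il17a, Il21 and Il31 and the stromal cytokines Il7 and Il33. Il2, Il4 and Il22, which T cells also make, were measured on both arrays, but all were dim. Il2 read 38.5 and 35.0 and Il22 38.5 and 37.1, where the lowest signal called above background was 25.8 and 17.7.

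Genes through which these receptors signal were taken from lists. Of 21 measured Jak kinases, Stat factors and their inhibitors, 2 were at least 1.5-fold higher (9.52%, against 5.82% of all measured genes). A further 1 was lower (4.76%, against 4.69%), and the median was 0.21 with 17 above 0 (2 with spike-in scaling). Stat2, a factor of the interferon response, read 5460 and 8628 (0.69). Stat4, a factor of the Il12 pathway, had a dim probe, at 39.3 and 83.4 (1.12, error 0.31). Socs2, an inhibitor induced by Stat5, read 792 and 485 (-0.68), and its other probes were at -0.84 and -0.74.

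Of 18 measured adaptors and processing genes of the interleukin-1 receptor, 1 was higher (5.56%, against 5.82% of all measured genes) and none lower (4.69% of all). Irak3, which restrains this pathway, read 708 and 1079 (0.64), and Traf6 was lowest at -0.44. Of 21 adaptors of TNF receptors, none was higher (5.82% of all measured genes) and 1 was lower (4.76%, against 4.69% of all). This was Traf1, which read 16813 and 10658 (-0.63), and Ripk1 was highest at 0.28. Both medians were small, at 0.10 and 0.03 (-0.43 and -0.50 with spike-in scaling).

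Related cytokines and receptors with other symbols had 24 of 34 measured. Of these, 3 were higher and 3 lower (12.5% each, against 5.82% and 4.69% of all measured genes). Ebi3, the partner of Il27, read 10135 and 18018 (0.86, 1.81-fold higher), the death receptor Fas 759 and 1209 (0.70) and Cd40 922 and 1367 (0.60). Osmr, which pairs with Il6st as the receptor of oncostatin M, read 490.4 and 219 (-1.13, 2.19-fold lower). Its ligand Osm read 152 and 97.3 (-0.61), and Csf1, which encodes M-CSF, 3456 and 2224 (-0.61, its other measured probes both -0.52).

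Several cell types make or answer to these cytokines, but which of them the cultures held was not measured. In bulk RNA, fewer cells of a type cannot be told apart from less RNA per cell. Of 11 macrophage markers all 11 were above 0 (51.9% of all measured genes were), with a median of 0.69 (7 above 0 with spike-in scaling). Among the 11, 7 were 1.5-fold higher (63.6%, against 5.82% of all measured genes) and none lower (4.69% of all). The summed signal of the macrophage list was 490414 and 633911, of which Csf1r gave 317392 and 332857. All 11 neutrophil markers were above 0 as well (median 0.49, summed signal 228791 and 275804, 5 above 0 with spike-in scaling). Of the neutrophil markers 2 were 1.5-fold higher (18.2%) and none lower. The sums of each list add unscaled signals, so the brightest probes weigh most, here S100a9 (83213 and 105812) and Csf3r (77107 and 76813). Of 12 osteoclast markers none was above 0 on either scaling (median -0.57, summed signal 1178120 and 1003420), with Acp5 at -0.0005. Osteoclast markers 1.5-fold lower numbered 5 (41.7%, against 4.69% of all measured genes), and none was higher (5.82% of all). Among stromal and osteoblast markers 10 of 12 were measured, 2 of them above 0 (median -0.77, summed signal 74053 and 47138, 0 above 0 with spike-in scaling). Of these 10, 7 were 1.5-fold lower (70%) and none higher, while Runx2 and Lum were not well above background on either array. Of 7 measured dendritic cell markers 3 were 1.5-fold higher (42.9%, against 5.82% of all measured genes) and none lower (4.69% of all). Above 0 were 6 (3 with spike-in scaling), with a median of 0.40. Their summed signal, 133082 and 130759, came mostly from Siglech (130427 and 128085). Flt3 was at 0.63, Zbtb46 at 0.40 and Itgax at -0.15, while Xcr1 and Clec9a were not well above background. The lists for mast cells and basophils (5 measured), endothelial cells (4) and megakaryocytes (6) had 2, 3 and 4 markers above 0 and medians of -0.20, 0.12 and 0.08. Lymphocyte markers were partly at background, Cd3d, Cd3g and Cd8a among them. Measured were 5 of 10 T and NK markers, 4 of them above 0, and 6 of 8 B markers, 5 above 0 (medians 0.23 and 0.18). Cd4 read 8124 and 10275, and Cd3e 1932 and 2141. The directions were mixed, with Cd2 1.65-fold higher, Cd5 1.61-fold lower and the B marker Ebf1 1.64-fold lower. The part of cell composition in the values of the members was not tested.

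The 15 members were also followed through other settings. Tnfsf10, Tnfsf15, Il15ra, Tnfrsf9, Il1b, Il10ra, Il16 and Il18 stayed 1.5-fold higher and Tnfrsf25 1.5-fold lower after normexp correction, whereas Il10, Il15, Tnfsf9, Il1r2, Il1r1 and Il17rc did not pass. The mean over probes took Il15ra to 0.58, Tnfrsf9 to 0.17 and Il17rc to -0.41.

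**Figure D5:**
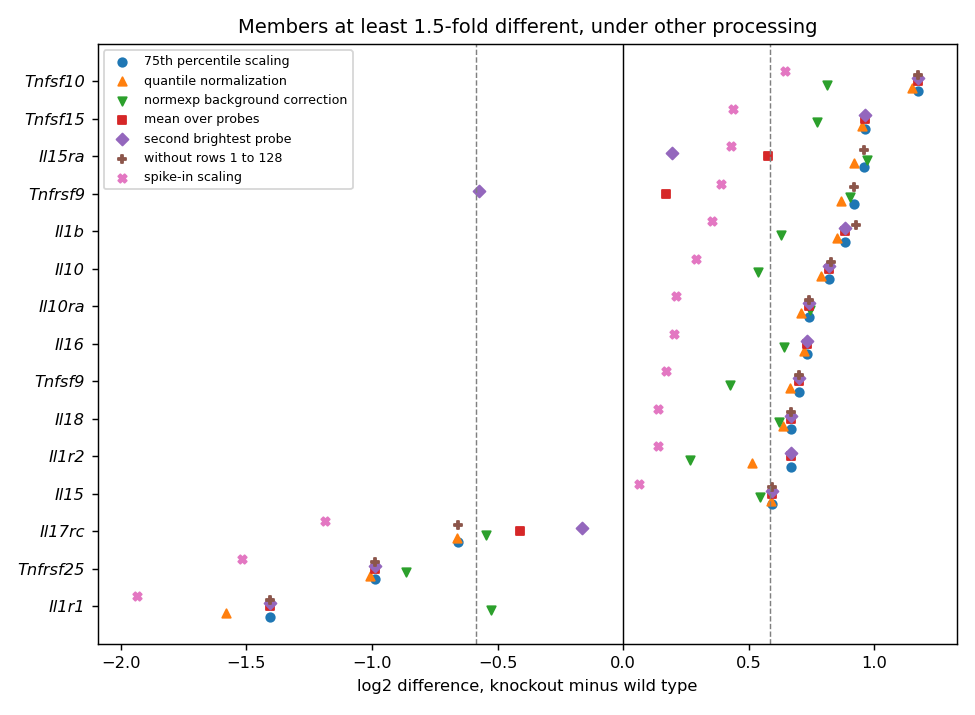
Log2 difference (knockout minus wild type) of the 15 members at least 1.5-fold different, under 7 processing settings, 1 marker shape each, with dashed lines at 1.5-fold. Only spike-in scaling moves all 15 by the same amount (0.53 to the left), and Tnfrsf9 turns negative (-0.57) on its second brightest probe; Il16, Il1r2 and Tnfsf15 have no value without the upper array rows.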

How the data were processed

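Total RNA of each genotype was hybridised to 1 array, both on 1 slide. The deposited scanner output gives every spot a processed intensity, background-subtracted and detrended within its array by Feature Extraction 10.10.1.1, per the file headers, with probes placed on mm9. Version 9.1 is named in the submitters' processing notes. No scaling between arrays is part of these intensities, so a common factor between arrays is set by the scaling. The deposited marks (other values of 0 or 1) gave spots well above background and uneven spots.

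Log2 intensity minus the log2 75th percentile of 59305 non-control spots was used, marked spots were left out (6 member spots), spots of a probe were averaged, and the brightest probe stood for its gene. Probes were named by RefSeq accession (GRCm38.p6 table, names only), which covered 48.9% of 55649 probes. "Measured" means well above background in most spots on both arrays. Bounds use the lowest signal called above background. There was no replicate and no test; the number of arrays limits the precision. The calling was tested on simulated data. Members, lists, motifs and alternatives were chosen with earlier results of these data known. The naming rule took every member at least 1.5-fold different or with such a bound, and a list of members known in osteoclast precursors or their neighbours; others that are named were chosen after their values were seen. A gene of the pathway lists is not reported here and was left out of their counts. limma 3.58.1 was used for normexp (offset 50), pandas 2.3.3 elsewhere. Alternatives were other scalings, background correction, filters, probes and array rows.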

Additional observations from a re-analysis of the deposited data

How the results depend on the processing

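Of the 12 higher and 3 lower members, the deposited value table and keeping marked spots retained all 15, and quantile normalization retained 11 and 3. Spike-in scaling (8 probes, from 0.30 to 0.72) gave 1 higher and 17 lower members with a median of -0.33; every difference falls by 0.53 there by construction. Normexp correction, run on median spot signals because the files hold no mean, gave 8 higher and 1 lower (3.64% and 2.16% of all genes). With no filter on dim probes 22 of 112 members were higher and 6 lower (12.4% and 5.89% of all genes), with a median of 0.12, and among the 16 members at or above the median level of all genes 4 were higher and 0 lower (4.79% and 2.40% of all genes), with a median of 0.34. A threshold of 2-fold gave 1 higher and 1 lower. Averaging probes gave 10 and 2, the second brightest probe 12 and 2 (10 of the original 12 higher, with Il15ra and Tnfrsf9 lost and Il4ra and Tnfsf12 added), and leaving out the upper array rows 9 and 3 of 47 members. Tnfrsf9 reversed, to -0.57, on its second probe; the cause was not tested. Of 11 members with a further measured probe, 9 had the same sign on both probes and 3 lay within 0.2; the 3 called members among them, Il15ra, Tnfrsf9 and Il17rc, were not past 1.5-fold in the same direction on the further probe. No paired analysis was possible because each genotype has 1 array. Low signals limit Il1r1, Il1r2, Tnfsf10, Tnfsf9 and Il10, among others.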
